A study of Arabidopsis thaliana with 12 samples.

Results

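The genes described are EXORDIUM (EXO, AT4G08950) and its relatives EXORDIUM-LIKE 1 to 7 (EXL1 to EXL7), 8 loci of Arabidopsis thaliana. They were chosen by name and locus after the family's rows in the deposited tables had been seen, so the values below describe the family and are not independent tests of it. The tables listed 6520 distinct genes in at least 1 comparison, and 7 of the 8 loci were among them. Each comparison tested 20865 or 21349 genes, and the count of 7 is not read as a result. RNA-seq of polyadenylated leaf transcripts was made from 12 libraries of the wild-type accession Col-0, 3 for each of 4 light regimes. The square regimes, SQH (high intensity) and SQL (low), held the lamp at a constant level through the day. The fluctuating regimes, FLH (high intensity) and FLL (low), replayed a natural light record with the same daily amount as the square regime of that intensity. All plants shared genotype and tissue and had 22 days of acclimation per the labels, seed came from a single parent, and no mutant or chemical treatment was part of these groups.

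EXO is a secreted protein of the cell wall space that is required for full cell expansion in leaves, and its transcript is raised by brassinosteroids, the steroid growth hormones of plants. EXL1 is needed for growth when carbon is scarce. The family takes its domain name from a phosphate-induced gene of tobacco cells, and the roles of the other members are less well known.

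The data analysed were 4 tables of genes that the authors called, with an adjusted p no larger than 0.05 and a log2 fold change of 0.5 or more in size. Intensity is compared within a pattern (SQH with SQL, FLH with FLL) and pattern within an intensity (SQL with FLL, SQH with FLH). A row gives the mean normalised count over the 12 libraries and the log2 fold change with the standard error (SE) of that change. A positive fold change is higher expression in the regime named first. The SEs required this in 16 of 16 checks on these genes and in 439 of 439 over all listed genes. A gene in all 4 tables gives each check 2 times, so these checks are not all independent. The study's plot labels put the sides the other way round, and under those labels every direction here would reverse. The tables hold no values for single libraries and no depth, so the spread between replicates enters through the SE alone. As a coefficient of variation (CV) between replicates, that SE was smallest for EXL2 (38.3%) and largest for EXL5 (82.2%). In the alignment statistics of the study the FLL libraries, and 1 library of SQL, mapped at a higher rate than the others, so that this technical split and the FLL regime cannot be told apart. The study took the regimes one after another within minutes when leaves were collected for DNA, and order of harvest and regime cannot be told apart either. Of the leaf marker genes, RCA had a mean normalised count of 503060 and LHCB1.1 one of 292634, and 0 of 3 markers of dividing cells and 0 of 3 of phloem were listed in any table. Of the other markers, 5 of 6 of mesophyll, 1 of 3 of epidermis and 2 of 2 of guard cells were listed at least once. Over all genes, 6520 were listed at least once, with 20865 or 21349 tested per comparison. Counts out of so few markers are therefore given only as a description. In bulk leaf tissue, fewer cells of a type and less RNA per cell cannot be told apart.

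Of the 8 genes, 7 are made of a single exon, and EXL6 has 2. EXO lies on chromosome 4 from 5740219 to 5741591 on the plus strand in TAIR10.1, the RefSeq assembly to which the loci were matched (8 of 8 matched). EXL1 (AT1G35140) lies on chromosome 1 from 12851983 to 12853235 (plus), EXL2 (AT5G64260) on chromosome 5 from 25703649 to 25705339 (plus), EXL3 (AT5G51550) on chromosome 5 from 20939363 to 20940895 (minus) and EXL4 (AT5G09440) on chromosome 5 from 2938193 to 2939715 (plus). EXL5 (AT2G17230) lies on chromosome 2 from 7494536 to 7496292 (minus), EXL6 (AT3G02970) on chromosome 3 from 668998 to 670567 (minus) and EXL7 (AT2G35150) on chromosome 2 from 14817047 to 14818211 (minus). EXL6 shares 352 bases with AT3G02975 on the opposite strand, and whether the counting used strand is not given in the sources used here. The other 7 overlap no annotated gene.

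The predicted proteins have between 278 (EXL4) and 363 (EXL5) residues. Over the 28 pairs, identity ranged from 30.1% to 82.3%. EXL2 and EXL4 were the closest pair (82.3%), and EXO was closest to EXL1 (67.6%). EXL3, EXL5 and EXL7 were 54.9% to 59.6% identical to each other, while EXL6 stayed at or below 37.8% with every other member. The longest stretch of identical bases between any pair of transcripts was 24, found between EXL2 and EXL4.

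**Figure D1:**
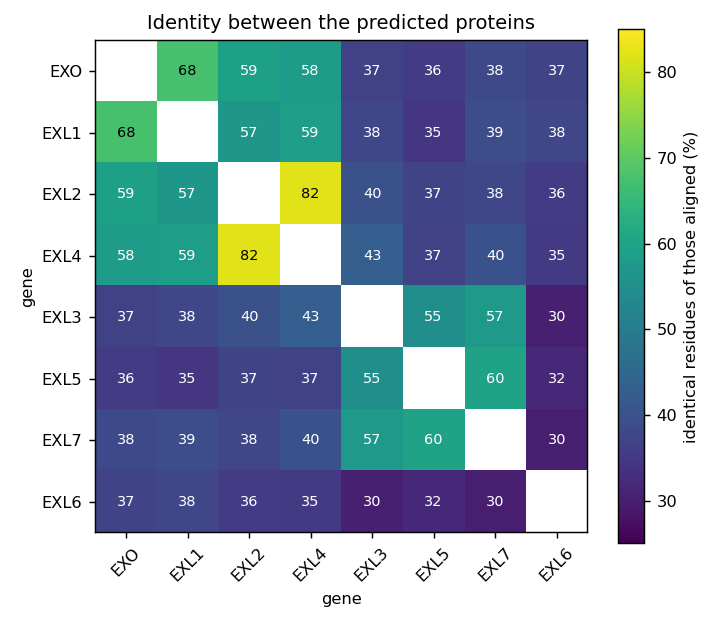
Identity between the predicted proteins of the 8 EXORDIUM family genes, as the percentage of aligned residues that are the same (colour and number in each cell; rows and columns are genes). EXL2 with EXL4 is the brightest pair at 82.3%, EXO with EXL1 follows at 67.6%, and EXL3, EXL5 and EXL7 form a second block.

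The 250 bases before the annotated start are shown for the 4 genes whose level could be solved in every regime, 3 of which (EXO, EXL1, EXL5) shared their pair of high regimes and 1 of which (EXL4) did not. Sequences are those of RefSeq (TAIR10.1), 5′ to 3′ on the strand of the gene, and capitals mark matches to the motifs given after them.
EXO, chr4:5739969-5740218, plus strand: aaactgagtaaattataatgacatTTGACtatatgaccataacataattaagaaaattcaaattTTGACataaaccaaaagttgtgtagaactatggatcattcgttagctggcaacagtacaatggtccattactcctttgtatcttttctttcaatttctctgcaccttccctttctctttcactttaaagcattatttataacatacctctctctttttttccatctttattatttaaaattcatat
EXL1, chr1:12851733-12851982, plus strand: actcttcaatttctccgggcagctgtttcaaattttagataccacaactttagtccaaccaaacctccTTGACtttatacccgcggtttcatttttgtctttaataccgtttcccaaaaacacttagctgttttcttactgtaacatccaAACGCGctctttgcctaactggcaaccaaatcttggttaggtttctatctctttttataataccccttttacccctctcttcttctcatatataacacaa
EXL5, chr2:7496293-7496542, minus strand: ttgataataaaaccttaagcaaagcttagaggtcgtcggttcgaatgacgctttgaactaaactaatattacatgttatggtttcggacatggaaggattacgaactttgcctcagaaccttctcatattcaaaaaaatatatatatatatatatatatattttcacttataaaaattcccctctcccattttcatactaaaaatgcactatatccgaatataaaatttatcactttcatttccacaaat
EXL4, chr5:2937943-2938192, plus strand: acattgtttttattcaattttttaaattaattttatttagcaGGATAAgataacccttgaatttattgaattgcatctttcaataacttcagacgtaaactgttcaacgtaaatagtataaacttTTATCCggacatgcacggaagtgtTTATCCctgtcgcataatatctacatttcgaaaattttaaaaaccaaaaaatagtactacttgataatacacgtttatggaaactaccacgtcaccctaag

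6 motifs were searched on both strands of these windows and of all 27443 windows of that length. The sugar-repressive element (TTATCC, or GGATAA on the other strand), known from genes that sugars repress, matched 3 times in EXL4, starting 208, 125 and 101 bases before the gene, and once in EXL6, and 12.5% of all windows held it. The core of the W-box (TTGAC or GTCAA), which WRKY transcription factors bind, was in EXO (226 and 186 bases before the gene), EXL1 (182) and EXL6, and in 44.9% of all windows. The rapid stress response element (CGCGTT or AACGCG), known from early wound responses, was in EXL1 at 100 bases and in 2.59% of all windows. The G-box (CACGTG, 6.49% of all windows) and 2 motifs bound by brassinosteroid-regulated transcription factors, the BRRE core (CGTGTG or CACACG, 5.37%) and the E-box CATGTG (or CACATG, 11.1%), were in 0 of the 8 windows. No match in the family overlapped another. These matches are letters in a window and do not show binding.

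The family was listed in 20 of the 32 possible rows, and 16 of these 20 kept to an adjusted p of 0.01 or less. Of all genes tested, 3.11% were called between SQH and SQL and 9.89% between FLH and FLL. Between SQH and FLH 22.2% were called, and between SQL and FLL 8.2%. The share of all listed rows at 0.01 was not computed, and nothing is read from these counts. EXO, EXL1 and EXL5 were in all 4 tables, EXL4 in 3, EXL2 and EXL3 in 2, EXL7 in 1 and EXL6 in none. The fold changes, SEs and adjusted p-values that follow are those of the authors' DESeq2 fit.

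**Figure D2:**
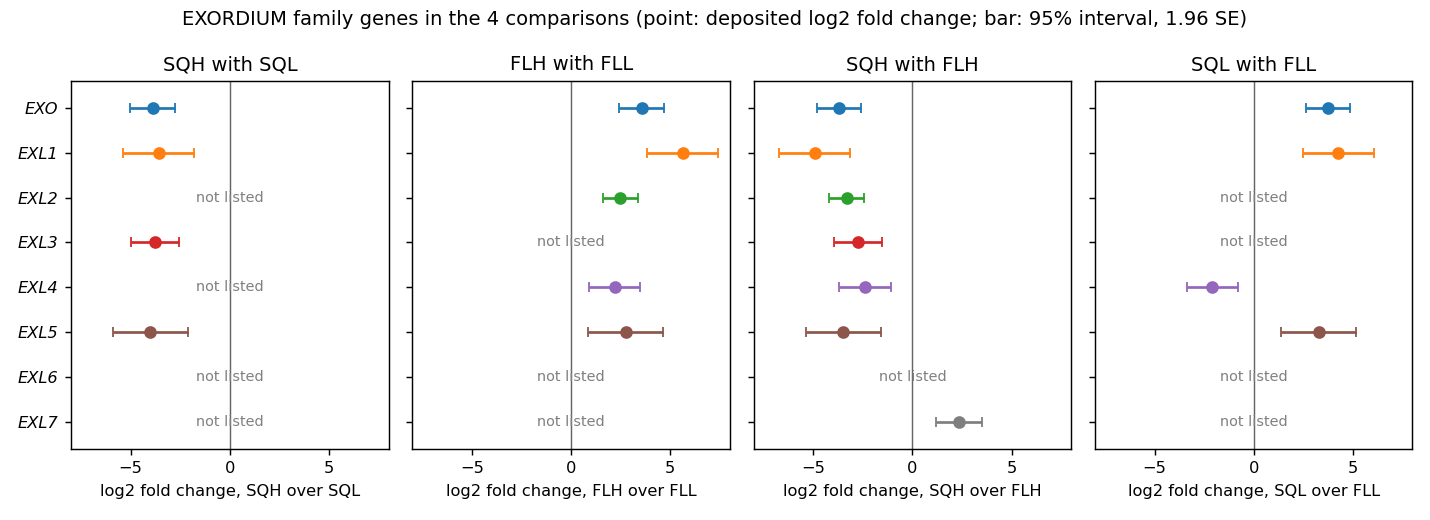
Deposited log2 fold change of each EXORDIUM family gene (rows) in the 4 comparisons (panels), with positive values for higher expression in the regime named first; points are the fold changes and bars their 95% intervals. All 4 points of SQH with SQL lie left of 0 and all 5 of FLH with FLL right of 0, while EXL7 in SQH with FLH and EXL4 in SQL with FLL lie on the side opposite to the rest of their panel.

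Between the square regimes, 4 of the 8 genes were lower in SQH than in SQL and 0 were higher, where 3.11% of the 21349 genes tested were called and 1.55% were called higher in SQL. Nothing is read from that contrast of shares, because the family was chosen with these rows known. EXO was at -3.89 on the log2 scale (SE 0.57, adjusted p 1.47e-08), which is 14.8-fold lower in SQH. EXL5 was at -4.00 (SE 0.97, adjusted p 0.00351), EXL3 at -3.76 (SE 0.61, adjusted p 9.36e-07) and EXL1 at -3.58 (SE 0.91, adjusted p 0.00673). The median absolute log2 fold change of the 4 was 3.82, against 2.25 for all genes listed in that table. A gene with a larger SE is listed only at a larger fold change. The SEs of the 4 were 0.57 to 0.97, against a median of 0.55 in the table, so nothing is read from these medians either. By p-value EXO ranked 13 among the 665 genes of the table.

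Between the fluctuating regimes the direction was the opposite for EXO, EXL1 and EXL5, the genes called in both intensity comparisons. 5 of the 8 genes were higher in FLH than in FLL and 0 were lower, where 9.89% of the 20865 genes tested were called and 5.38% were called higher in FLH. EXL1 was furthest apart, at 5.62 on the log2 scale (SE 0.91, adjusted p 2.43e-07), or 49.1-fold higher in FLH. EXO was at 3.55 (SE 0.57, adjusted p 1.74e-07) and EXL2 at 2.49 (SE 0.45, adjusted p 5.71e-06). EXL5 (2.74, SE 0.97, adjusted p 0.048) and EXL4 (2.19, SE 0.66, adjusted p 0.0171) were nearer the threshold, and a limit of 0.01 on the adjusted p left 3 of the 5. The median absolute log2 fold change of the 5 was 2.74, against 1.89 for all genes in the table. Their SEs were 0.45 to 0.97, against a median of 0.51 in the table, and again nothing is read from the medians.

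At high intensity, 7 of the 8 genes were called between the light patterns, the most of any comparison, in the table that also called the most genes (22.2% of those tested). 6 of them were lower in SQH than in FLH, a direction in which 12.1% of genes were called, and 1 was higher in SQH, where 10.1% were. EXL1 (-4.94, SE 0.91, adjusted p 2.95e-06), EXO (-3.71, SE 0.57, adjusted p 9.68e-09), EXL5 (-3.48, SE 0.97, adjusted p 0.00336) and EXL2 (-3.31, SE 0.45, adjusted p 6.03e-11) had the largest absolute values. EXL3 (-2.74, SE 0.61, adjusted p 0.000167) and EXL4 (-2.39, SE 0.66, adjusted p 0.00317) followed. EXL7 was the exception, at 2.35 on the log2 scale (SE 0.60, adjusted p 0.00119), or 5.09-fold higher in SQH, at a mean normalised count of 39.1. The means of the other 6 listed genes lay between 1030 (EXL4) and 3262 (EXL3), on a scale not corrected for length.

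At low intensity, 3 of the 8 genes were higher in SQL than in FLL and 1 was lower, where 8.2% of the genes tested were called, 3.99% higher in SQL and 4.21% higher in FLL. EXL1 was at 4.26 (SE 0.91, adjusted p 0.000557), EXO at 3.73 (SE 0.57, adjusted p 1.03e-07) and EXL5 at 3.27 (SE 0.97, adjusted p 0.0201). EXO ranked 12 by p-value among the 1711 genes of the table. EXL4 was at -2.08 (SE 0.66, adjusted p 0.0309), or 4.24-fold lower in SQL. A limit of 0.01 on the adjusted p left 2 of the 4.

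The member nearest the authors' threshold was EXL5 in FLH with FLL, at an adjusted p of 0.048. Just outside it was EXL4 in SQH with SQL, whose other 3 tables imply a 3.70-fold higher level in SQH than in SQL, where 4.29-fold would have been needed for a call at its SE. A row that is missing does not show equal expression. For EXL7, a log2 fold change of 1.69 to 1.90 was needed in the 3 tables without it. EXL6 had no row, so neither its level nor the change it needed is known.

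The fold changes of a gene in at least 3 tables fix its relative level in the 4 regimes, and the mean normalised count sets the scale. EXO stood at a normalised count of 357 under SQH (95% interval 206 to 618), 5293 under SQL (3065 to 9142), 4666 under FLH (2702 to 8059) and 398 under FLL (230 to 690). Its pair of high regimes, SQL and FLH, was far from its pair of low ones, and within each pair the regimes did not differ beyond their error. No table compares SQL with FLH, and the implied log2 difference was 0.18 (95% interval -0.93 to 1.30). Between FLL and SQH it was 0.16 (-0.96 to 1.28). These intervals allow differences of more than 2-fold.

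EXL1, the family member with a known part in growth under carbon shortage, stood at a normalised count of 255 under SQH (106 to 612), 3041 under SQL (1269 to 7288), 7797 under FLH (3254 to 18683) and 159 under FLL (65.9 to 382). Its highest regime was FLH and its lowest FLL. The implied log2 difference of FLH over SQL was 1.36 (-0.42 to 3.14), and that of SQH over FLL was 0.68 (-1.11 to 2.47), so neither of these neighbours was separated beyond its error.

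EXL5 stood at a normalised count of 389 under SQH (153 to 988), 6238 under SQL (2462 to 15804), 4341 under FLH (1713 to 11000) and 649 under FLL (256 to 1645). The same pair of regimes was high, with an implied log2 difference of 0.52 for SQL over FLH (-1.37 to 2.42) and of 0.74 for FLL over SQH (-1.16 to 2.64).

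EXL4 had another order. It stood at a normalised count of 539 under SQH (285 to 1017), 146 under SQL (76.7 to 276), 2817 under FLH (1494 to 5312) and 618 under FLL (327 to 1166). FLH was the highest, as for EXL1, but SQL, a high regime of EXO, EXL1 and EXL5, was the lowest of EXL4. FLH over SQL came to a log2 difference of 4.27 (2.97 to 5.57), or 19.3-fold. FLL and SQH lay 0.20 apart on the log2 scale (-1.10 to 1.49), and SQH over SQL came to 1.89 (0.58 to 3.19), which was not called.

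**Figure D3:**
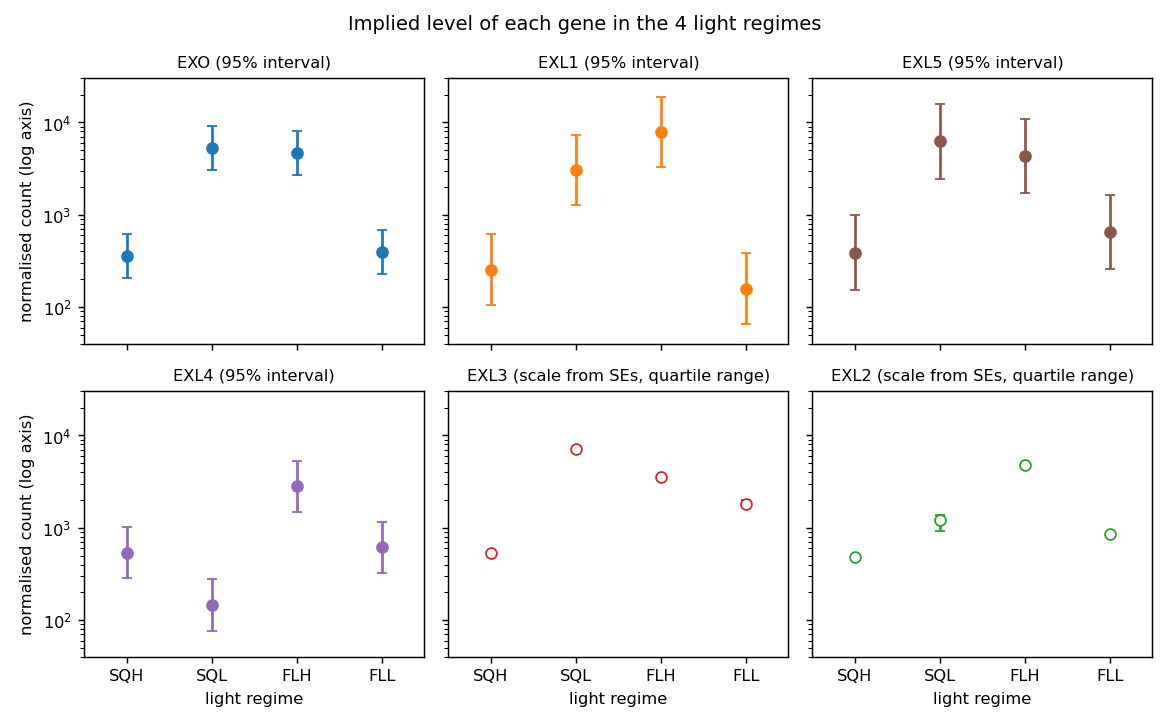
Implied normalised count (log axis) of 6 EXORDIUM family genes in the 4 light regimes. Filled points have 95% intervals from the deposited SEs; open points (EXL3 and EXL2) have their scale estimated from the SEs, and their bars span only the quartiles of that scale. EXO, EXL1 and EXL5 are high in SQL and FLH, and EXL4 is lowest in SQL, at 146.

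EXL3 and EXL2 were in 2 tables each, which fixes 3 of their regimes relative to each other. For EXL3 the log2 difference of SQL over FLH was 1.01 (-0.19 to 2.22), and for EXL2 that of SQH with FLL was -0.83 (-1.71 to 0.06). Their scale was estimated from the difference between their squared SEs, which carries a count term, with the last regime as the remainder of the mean. On 127 and 112 other genes with known levels, the scale came within 10% in 98.4% and 97.3% of cases for the tables of EXL2 and of EXL3. The remainder was not checked in this way, and a small error of scale can move it more. For EXL3 it gave normalised counts of 531 under SQH, 7167 under SQL, 3556 under FLH and 1794 under FLL. The remainder in FLL implies a log2 difference of SQL over FLL of 1.998, above the 1.76 at which a row would have been expected, so that value is rough. For EXL2 it gave 481 under SQH, 1202 under SQL (quartile range of the scale 925 to 1387), 4786 under FLH and 854 under FLL.

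EXL2 and EXL4, the closest pair of proteins, thus shared FLH as their highest regime and had different estimates in SQL relative to SQH. For EXL2 the log2 fold change of SQH over SQL was -1.32 (quartile range of the scale -1.46 to -0.99), where 1.43 in size was needed for a row. That value rests on the unchecked remainder. For EXL4 it was 1.89. Neither was called, and the difference between them was not tested. EXO and EXL5 were at 35.5% protein identity. By point estimate, their levels over regimes were the most similar of the 6 pairs among the 4 members with solved levels (EXO, EXL1, EXL4 and EXL5).

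The difference between the intensity effect under square light and that under fluctuating light summarises the crossing of the regimes. It was -9.20 on the log2 scale for EXL1 (SE 1.29, 95% interval -11.7 to -6.67), -7.44 for EXO (SE 0.81, -9.02 to -5.86) and -6.74 for EXL5 (SE 1.37, -9.43 to -4.06). For EXL4 it was -0.30 (SE 0.94, -2.14 to 1.53), with its values higher at high intensity under both patterns and the one for square light implied rather than listed. These are descriptions of rows used to choose the genes and carry no test.

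Genes with a similar course were ranked by the root mean square (RMS) difference of their log2 levels over the 4 regimes, each centred on its own mean, among 210 other genes in at least 3 tables. All these genes come from the same 12 libraries, and 4 points per gene make the ranking a description. Under SQL the SE of a single log2 level was 0.40 for EXO and 0.68 for EXL5. Distances of that size or less do not settle the order of the neighbours. The nearest to EXO were AT4G16563 (0.11), EXL5 (0.29), NAC090 (0.32, a NAC-family transcription factor gene), ZF1 (0.38, a zinc-finger protein gene) and AT3G19680 (0.40). AT4G16563 stood at a normalised count of 140 under SQH, 1771 under SQL, 1900 under FLH and 147 under FLL. The nearest to EXL5 were AT3G19680 (0.14), EXO (0.29) and AT4G16563 (0.36). AT3G19680 stood at 763 under SQH, 10294 under SQL, 6868 under FLH and 1266 under FLL.

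The nearest to EXL1 were AT1G33760 (0.18), NAC090 (0.58) and TCH4 (0.63), a xyloglucan endotransglucosylase gene of the cell wall that touch induces. AT1G33760 stood at a normalised count of 5.26 under SQH, 85.4 under SQL, 210 under FLH and 4.36 under FLL. EXL1 itself was 0.76 from EXO, which placed it at rank 19 of the genes compared with EXO. EXL4 was 2.38 from EXO, at rank 137. Its own nearest were AT2G36220 (0.37), AT3G05937 (0.38) and AT5G16380 (0.49), and AT2G36220 stood at 341 under SQH, 155 under SQL, 1545 under FLH and 518 under FLL.

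**Figure D4:**
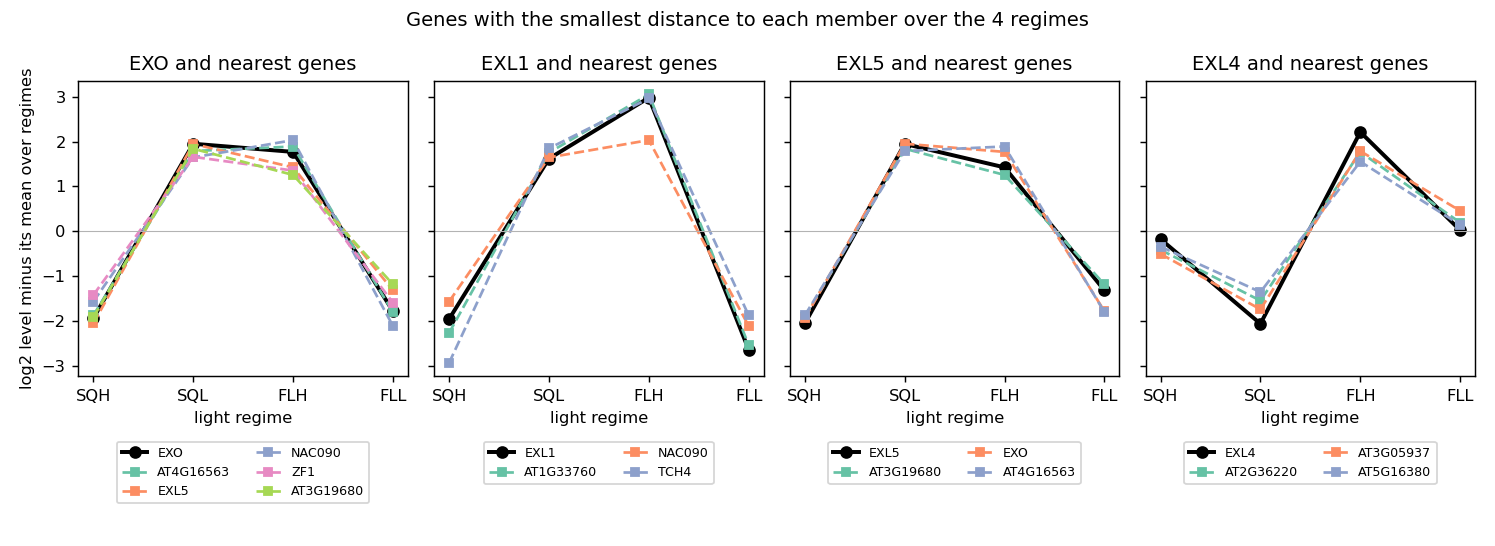
Log2 level minus its mean over the 4 regimes for EXO, EXL1, EXL5 and EXL4 (black) and the genes nearest to each by RMS difference (coloured, dashed). AT4G16563 follows EXO at an RMS difference of 0.11, and the EXL4 panel has its lowest points in SQL, where the other panels are high.

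Having SQL and FLH as the pair of highest regimes was common among the 211 genes in at least 3 tables. EXO, EXL1 and EXL5 shared it with others to a total of 91 genes (43.1%). By its point estimates, the pair of EXL4 was FLH and FLL, found in 30 genes (14.2%). Its full order of FLH, FLL, SQH and SQL was found in 13 (6.16%). FLL and SQH of EXL4 did not differ beyond their error (log2 difference 0.20, -1.10 to 1.49), so this pair and order are not settled. The other possible pair, SQH and FLH, was found in 5 genes (2.37%). A gene is in 3 tables only if it was called 3 times, so genes called in fewer than 3 comparisons are not in this count. Of the 2303 genes in 2 or more tables, only these 211 were kept. A gene that differs by pattern alone, or by intensity alone, would be called in 2 tables at most and is left out. The share of 43.1% therefore depends on this choice of genes and does not show how common the pair is among all genes.

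Of 5 growth genes known to be raised in plants with more EXO, 2 were listed, once each. Over all genes, 6520 were listed at least once, where each comparison tested 20865 or 21349. The expansin gene EXPA5, the wax and fatty acid elongase gene KCS1 and the wall-associated kinase gene WAK1 were in no table. The aquaporin gene TIP2;1 was listed once, lower in SQH than in SQL (-1.64, SE 0.51, adjusted p 0.0457), and the arabinogalactan protein gene AGP4 once, higher in SQL than in FLL (2.27, SE 0.73, adjusted p 0.0327). Both rows had the direction of EXO in that comparison, and neither passed an adjusted p of 0.01. In SQH with FLH, where EXO was 13.1-fold lower in SQH, 0 of the 5 were listed. The share of all genes tested that was called was 3.11% between SQH and SQL, 8.2% between SQL and FLL and 22.2% between SQH and FLH. With 5 genes, these counts do not show whether the list followed EXO.

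The 28 genes of brassinosteroid synthesis, turnover and signalling were called in 1 case between SQH and SQL, 5 between FLH and FLL, 8 between SQH and FLH and 5 between SQL and FLL. These are 3.57%, 17.9%, 28.6% and 17.9% of the list, beside 3.11%, 9.89%, 22.2% and 8.2% of all genes tested, and the list's shares between SQH and SQL and between SQH and FLH lie near those of all genes. In SQH with SQL the row was SOB7, a gene of brassinosteroid inactivation (-2.78, SE 0.58, adjusted p 0.000395). In FLH with FLL all 5 were lower in FLH, among them PRE1 (-2.65, SE 0.67, adjusted p 0.0026), a growth-promoting helix-loop-helix factor gene, and BRS1 (-2.22, SE 0.58, adjusted p 0.00425), a carboxypeptidase gene of the pathway. In SQH with FLH, 3 were higher and 5 lower in SQH, with BEE3 (-2.70, SE 0.88, adjusted p 0.0138), a brassinosteroid-induced factor gene, and SOB7 (-2.68, SE 0.58, adjusted p 9.7e-05) the furthest apart. In SQL with FLL all 5 were lower in SQL, with CPD (-2.07, SE 0.62, adjusted p 0.0209), a synthesis gene, and IBH1 (-1.83, SE 0.52, adjusted p 0.0146), a growth repressor gene, at the top. 0 of these last 5 passed an adjusted p of 0.01.

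Of the 10 markers of low cellular energy, those called were lower in the first-named regime in SQH with SQL (4 of 10), SQH with FLH (10 of 10) and SQL with FLL (4 of 10), and higher in FLH with FLL (1 of 10, where 9.89% of all genes tested were called). The share of all genes called was 8.2% between SQL and FLL, 3.11% between SQH and SQL and 22.2% between SQH and FLH. These markers too were chosen with earlier results of these data known, so nothing is read from the contrast with those shares. In SQL with FLL their direction was that of EXL4 and opposite to that of EXO, EXL1 and EXL5. DIN10, a raffinose synthase gene induced in the dark, had a normalised count of 70.5 under SQH, 1434 under SQL, 26993 under FLH and 11447 under FLL. SEN1, a senescence and dark-induced gene, had 16.6 under SQH, 63.1 under SQL, 20219 under FLH and 2201 under FLL, with a log2 fold change of -10.25 (SE 0.91) for SQH over FLH. ASN1, an asparagine synthetase gene induced by darkness, was at -5.30 in SQL with FLL (SE 0.95, adjusted p 1.73e-05), and at -8.63 in SQH with FLH (SE 0.95). TPS8, of the trehalose phosphate synthase family, was at -3.67 in SQH with SQL (SE 0.53).

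Of the 12 genes of touch and early wounding, all that were called had the direction of EXO in that comparison, with 1 called between SQH and SQL, 8 between FLH and FLL, 9 between SQH and FLH and 2 between SQL and FLL. These are 8.33%, 66.7%, 75% and 16.7% of the list, beside 3.11%, 9.89%, 22.2% and 8.2% of all genes tested, and the first and last shares rest on 1 and 2 genes. Because the list was chosen with earlier results of these data known, its shares and directions are a description and not independent evidence. TCH4 was the only one in all 4 tables. Its log2 fold changes were -4.78 and 4.84 for intensity under square and fluctuating light, and -5.89 and 3.73 for pattern at high and low intensity (SE 0.63 each). The calmodulin-like genes CML38 (4.99, SE 0.61) and CML39 (5.37, SE 1.71, at a mean normalised count of 13.3) led in FLH with FLL. ERF6, an ethylene response factor gene, was at -4.55 (SE 0.87) in SQH with FLH, and CML39 at 5.75 (SE 1.70) in SQL with FLL. The calls of this list fell mostly in the comparisons with FLH, while EXO, EXL1 and EXL5 were called in all 4, and the part of handling or harvest in either was not tested. Some leaf markers differed with FLH as well. Of the mesophyll markers, 3 of 6 were lower in FLH than in FLL (RCA -1.83, SE 0.48), where 4.51% of all genes tested were. In SQH 3 of 6 were higher than in FLH (RCA 1.63, SE 0.48), where 10.1% of all genes tested were. The guard cell markers were higher in SQH than in FLH in 2 of 2 cases, beside that same 10.1%. In FLH with FLL, 1 of 2 was called, MYB60, lower in FLH (-1.07, SE 0.31), beside 4.51% of all genes tested. The epidermal CER6, 1 of 3 markers of that tissue, was lower in SQL than in FLL (-1.43, SE 0.33), where 4.21% of all genes tested were. Their part in the family's values was not tested.

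**Figure D5:**
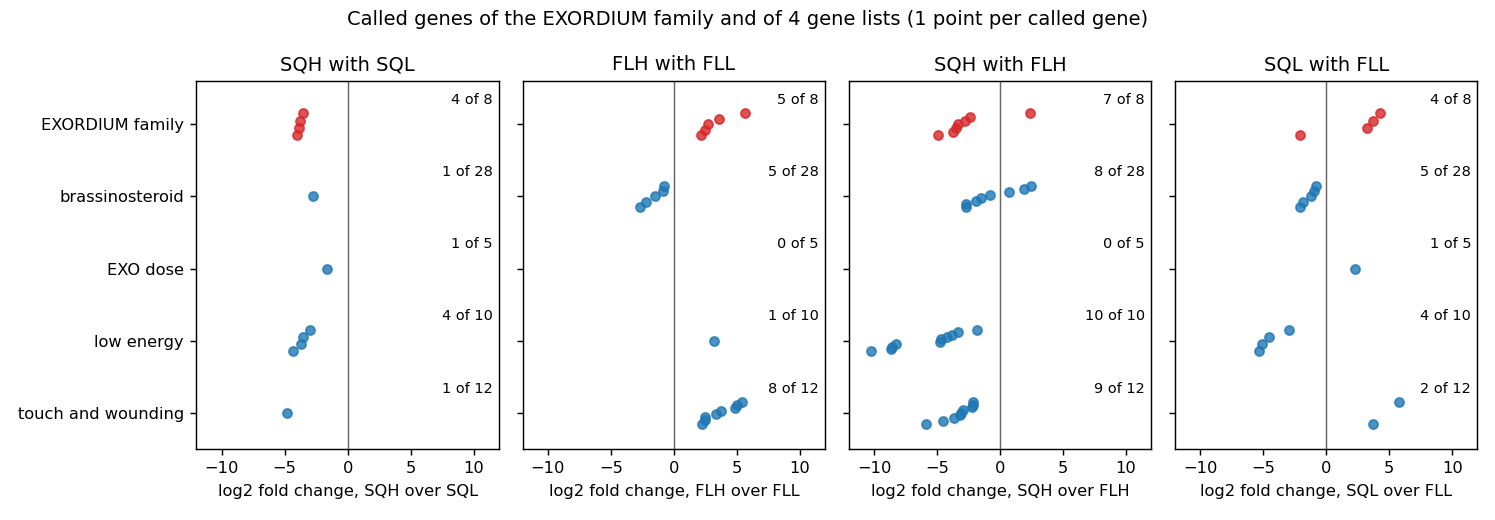
Log2 fold changes of the called genes of the EXORDIUM family (red) and of 4 gene lists (blue, rows) in the 4 comparisons (panels), positive for higher expression in the regime named first; 1 point is 1 called gene, and the number called of the number in the list stands above each row. The called touch and wounding genes lie on the side of EXO in each panel, and low energy markers lie left of 0 in SQL with FLL, where 3 of 4 family points lie to the right.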

How the data were processed

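RNA-seq reads of 12 Col-0 leaf libraries were aligned by the authors to TAIR10 with HISAT2. The submitters' processing notes also name SAMtools, featureCounts and DESeq2, without versions. Groups were taken from library titles. Each of the 4 deposited tables holds only called genes. The mean normalised count is a signal that the authors averaged over all libraries. The deposited fold change and its SE are on the log2 scale, and the deposited Wald statistic, their ratio, is a score. The deposited p-value and adjusted p-value are the authors' own (Benjamini-Hochberg). As the family's rows are columns of the authors' comparisons, they were described and not tested again, and no model was refitted.

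Levels were solved by least squares from the fold changes of genes in at least 3 tables, with the mean over 4 regimes set to the mean normalised count. 1 dispersion per gene, fitted to its SEs with counting noise, gave errors and intervals. The number of genes tested came from ratios of adjusted p to p, at p of at least 1e-04. These steps recovered the true values in simulated tables whose fold changes had no noise and whose SEs came from the same formula. That checks the code and not the errors or intervals. In the deposited data, 56.3% to 77.5% of ranks at those p-values came out whole with the recovered number of genes. Proteins were aligned globally, and windows came from TAIR10.1, while the deposited tables carry no coordinates. Python 3.11.15, numpy 2.4.6, pandas 2.3.3, scipy 1.17.1 and matplotlib 3.10.9 were used.

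The members and gene lists were chosen with earlier results of these data known. Named genes were all members, the 5 genes nearest to EXO and 3 nearest to EXL1, EXL4 and EXL5, the whole list of EXO-dose genes and, from the other lists, genes in at least 3 tables or the 2 with the largest absolute fold change per table.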

Additional observations from a re-analysis of the deposited data

How the results depend on the processing

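With the limit on the adjusted p at 0.01, the members called numbered 3 in FLH with FLL (5 as deposited) and 2 in SQL with FLL (4 as deposited), since a stricter threshold keeps fewer rows, while SQH with SQL (4) and SQH with FLH (7) had the same counts. A log2 fold change of 1 or more in size, or a 95% interval beyond 0.5, left the counts of all 4 comparisons as deposited. The limit of 1 could not have changed them, since members with SEs of 0.45 or more are listed only at larger changes. At the stricter adjusted p, the brassinosteroid list had 0 calls in SQL with FLL, 3 in FLH with FLL and 5 in SQH with FLH. Leaving out 1 table (12 levels of EXO, EXL1 and EXL5), or taking the intensity difference between patterns of EXO, EXL1 and EXL5 from the pattern tables, returned identical values by construction, since the 4 tables come from one fit, and says nothing about stability. With the geometric mean as the scale, all 16 levels rose by a common factor per gene, EXO in SQH to 698, and their ratios are the same by construction. Errors without counting noise stayed close in 8 of 8 contrasts. Ranking by Pearson r shared 3 of the 5 genes nearest to EXO. The estimate of EXL2 and EXL3 levels was added after seeing the data. No paired analysis was possible because the tables hold no values per library, and for that reason leaving out each replicate was not run. The depth of the libraries was not analysed here.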
